A study of Mus musculus with 8 samples.

Results

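The transcripts of 10 Sox genes, Sox2, Sox4, Sox6, Sox7, Sox9, Sox10, Sox11, Sox12, Sox17 and Sox18, were followed across lists of m6A peaks from denervated and innervated mouse calf muscle. The members were chosen by the peak calls themselves, from the Sox genes whose names occur in these peak lists. Sox5 and Sox13 also had peaks, in both innervated lists among others, but are not members, so a call alone does not explain the choice. Because the calls chose the members, their calls, positions, widths and score ranks are given as a description and were not tested. All 10 carried a peak in at least 1 list, out of 5981 genes with a peak in any list. The muscle was gastrocnemius of 10-week-old male C57BL/6 mice with no engineered allele named. Denervated muscle was taken 14 days after denervation, and innervated muscle was the untreated gastrocnemius of the opposite leg. Each group had 2 replicates, and the labels do not say that their numbers mark separate animals, so differences between replicates may be technical.

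SOX proteins are transcription factors that bind and bend DNA through an HMG box, and they are sorted into groups by the similarity of that domain. The SoxB1 member Sox2 maintains stem and progenitor cells, and in nerve it marks immature and injury-responsive Schwann cells, the glia of peripheral axons. The SoxE factors Sox9 and Sox10 direct cartilage and connective tissue matrix genes and the neural crest and Schwann lineage, while the SoxF factors Sox7, Sox17 and Sox18 act in endothelium. SoxC factors (Sox4, Sox11, Sox12) act in progenitors and in growing or regenerating neurons, and the SoxD factor Sox6 represses slow-fibre genes in muscle. N6-methyladenosine (m6A) is a methyl mark on adenosines of messenger RNA that affects RNA stability and translation. In the assay, methylated RNA fragments are captured with an antibody (IP) and peaks are regions enriched over the input RNA.

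Across all genes the lists held 9804 and 9496 peaks in denervated replicates 1 and 2, and 9327 and 10300 peaks in innervated replicates 1 and 2. These are peak calls and not read counts, so sequencing depth, transcript level and methylation level are unknown. The lack of a call does not show that a transcript lacked m6A. In whole muscle, fewer cells of a type and less RNA per cell cannot be told apart. Peak edges lay on a grid: 57 of the 69 Sox peaks, and 86.2% to 87.7% of all unspliced peaks of a list, had a width within 3 bases of a multiple of 50, which sets the resolution of positions. The tissue could not be checked from muscle fibre markers, because 0 of 15 such genes had a peak in any list. Of 12 satellite cell and myogenic genes, 7 had a peak in at least 1 list.

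Sox2, Sox9 and Sox11 were called in both denervated lists and in neither innervated list. No member was called in the innervated lists alone. Among all genes with a peak, 3.41% were called in the denervated lists alone and 3.14% in the innervated lists alone. Sox7 and Sox12 were called in all 4 lists, a pattern shared by 48.8% of all genes with a peak. Sox4, Sox6, Sox17 and Sox18 were called in 3 lists, against 16.5% of all genes, and Sox10 in 1 list, against 19.6% of all genes. The shares over all genes are given for scale, and nothing is read from the members' counts, since the calls chose the members.

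**Figure D1:**
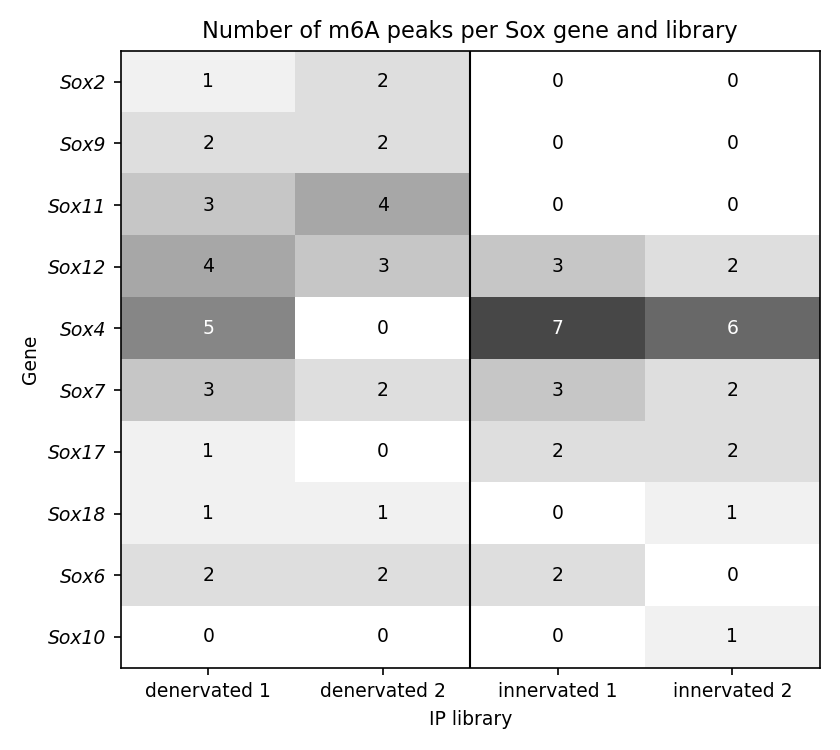
Number of peaks of each Sox gene (rows) in each IP library (columns, denervated left of the line and innervated right of it). Sox2, Sox9 and Sox11 had 0 peaks in both innervated libraries, and Sox4 had the most, 7, in innervated replicate 1 but 0 in denervated replicate 2.

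The number of Sox peaks was 22 and 16 in the denervated lists, against 17 and 14 in the innervated lists. The means were 19 ± 4.2 in denervated and 15.5 ± 2.1 in innervated muscle (SD, n = 2 each), and the values of the groups overlapped. Members with a peak numbered 9 and 7 in the denervated lists, against 5 and 6 in the innervated lists, without overlap. The called Sox genes that are not members, Sox5 and Sox13, numbered 2 and 1 in the denervated lists, against 2 and 2 in the innervated lists. With them included, the nearest values of the groups were equal, so the separation depends on the choice of members. All genes with a peak numbered 4601 and 4230 in the denervated lists, against 4149 and 4642 in the innervated lists. The bases covered by Sox peaks were 6816 and 5032 in the denervated lists, against 4383 and 4070 in the innervated lists, also without overlap. All peaks together covered 3236460 and 3406499 bases in the denervated lists, against 3022237 and 3560882 bases in the innervated lists. Overlapping peaks of different lists were joined where they had 1 base or more in common and ran on the same strand, and the 69 Sox peaks formed 26 regions. Of these, 7 were called in the denervated lists alone, 0 in the innervated lists alone and 3 in all 4 lists. Over all 13116 regions of the series these shares were 3.67%, 4.2% and 34.6%. Each of the 69 Sox peaks was a single block, as were 85.2% to 88.5% of all peaks of a list. Sox2, Sox4, Sox11 and Sox12, with 3, 18, 7 and 12 of these peaks, are intronless. Their peaks could not span a splice junction, so nothing is read from this.

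Of the 10 members, 5 have entries in the RefSeq promoter table of GRCm38.p6, the assembly of mm10. Sox6 has 6 listed starts and is not shown. The other 4 have a single start, and they cover a gene called in the denervated lists alone in each of groups B1 and C (Sox2, Sox11), together with the SoxC genes that were also called in innervated muscle (Sox4, Sox12). Their upstream sequences are printed because a single listed start fixes the window. Each holds the 250 bases before the transcript start, 5′ to 3′ on the gene's strand, with the letters CCAAT, or their reverse complement ATTGG, in capitals.
Sox2, chr3:34649745-34649994, plus strand: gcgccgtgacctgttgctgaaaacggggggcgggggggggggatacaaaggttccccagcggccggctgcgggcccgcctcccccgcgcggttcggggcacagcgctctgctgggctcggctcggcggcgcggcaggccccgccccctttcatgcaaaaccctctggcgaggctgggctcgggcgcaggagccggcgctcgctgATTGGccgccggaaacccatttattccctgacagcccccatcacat
Sox11, chr12:27342719-27342968, minus strand: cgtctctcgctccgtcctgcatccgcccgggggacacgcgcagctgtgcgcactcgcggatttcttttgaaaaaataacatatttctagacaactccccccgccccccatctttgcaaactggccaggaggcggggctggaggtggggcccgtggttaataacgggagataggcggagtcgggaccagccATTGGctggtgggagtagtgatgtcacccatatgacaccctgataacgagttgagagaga
Sox4, chr13:28953700-28953949, minus strand: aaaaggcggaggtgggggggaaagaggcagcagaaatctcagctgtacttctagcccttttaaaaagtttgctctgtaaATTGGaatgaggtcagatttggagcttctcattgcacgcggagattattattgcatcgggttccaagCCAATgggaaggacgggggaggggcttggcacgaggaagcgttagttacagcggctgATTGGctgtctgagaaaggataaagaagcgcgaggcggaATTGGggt
Sox12, chr2:152398047-152398296, minus strand: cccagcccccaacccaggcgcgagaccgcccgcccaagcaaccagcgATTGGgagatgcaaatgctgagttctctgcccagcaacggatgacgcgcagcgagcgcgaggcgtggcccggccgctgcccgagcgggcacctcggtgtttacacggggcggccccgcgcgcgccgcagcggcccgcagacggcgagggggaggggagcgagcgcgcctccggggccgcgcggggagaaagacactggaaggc

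The letters CCAAT on either strand occurred in all 4 windows, 4 times in Sox4 and 1 time in each of the others, against 33.8% of the 32851 promoters in the table with at least 1 match. The E-box letters CANNTG, which read the same on both strands apart from the free bases, occurred in Sox4, Sox11 and Sox12, against 66.2% of all promoters. The octamer ATGCAAAT on either strand occurred in Sox12 alone of the 4, against 1.6% of all promoters. The letters ACAAAG on either strand, which resemble the core bound by SOX and TCF proteins, occurred in Sox2 alone of the 4, against 16.5% of all promoters. TATAAA occurred in none of the 4, against 12.4% of all promoters. The windows were 72% G or C in Sox2, 58% in Sox11, 50.8% in Sox4 and 74.4% in Sox12, and the median over all promoters was 52.4%. None of these letters separated the genes called in the denervated lists alone from the others, and a match is no evidence of binding. The letters were chosen after these sequences were seen, so the shares over all promoters are given for scale alone.

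Sox2 had 1 peak in denervated replicate 1 and 2 peaks in denervated replicate 2, against 0 and 0 in the innervated replicates. Its peaks covered 345 bases in each denervated list. The region common to both lay on chromosome 3 from 34651232 to 34651576, at 1238 to 1582 bases from the 5′ end of a gene span of 2467 bases, and a further peak of 99 bases stood before it in replicate 2. The spread of the 2 denervated lists was small: the best Sox2 peak stood at the percentile 73.6 and 73.3, where 100 is the smallest score of a list. The authors' score ran from 0 to at most 0.023, and what it measures is not given in the sources used here. Like p-values, small scores were taken to mark strong peaks, and a percentile would count the other way if large scores did. The long noncoding gene Sox2ot spans the whole Sox2 gene in the RefSeq table and is transcribed in the same direction. Reads from either could give these peaks, and the lists assign them to Sox2.

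Sox11 had 3 and 4 peaks in the denervated lists, against 0 and 0 in the innervated lists. The peaks covered 749 and 1148 bases. They lay on chromosome 12 in 4 regions, from 27342370 to 27342718, from 27341972 to 27342271, from 27341078 to 27341525 and, in replicate 2 alone, from 27340581 to 27340879. The first region began at base 1 of the RefSeq gene span in denervated replicate 1 and at base 150 in replicate 2, directly beside the upstream window printed above. The last peak ended 2138 bases into a span of 8451 bases, so that the final 6313 bases held no call. The best percentile was 96.9 in denervated replicate 1 and 64.6 in denervated replicate 2. The score of 1.3e-09 in replicate 1 was the smallest of all Sox peaks, and that in replicate 2 was 2.2e-05, so the denervated lists held the gene at unlike ranks.

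Sox9 had 2 peaks in each denervated list, against 0 in each innervated list. They covered 551 and 651 bases. On chromosome 11 the shorter region ran from 112785110 to 112785310 and the longer from 112785410 to 112785859. The longer region had the same edges in both lists, and the bases shared by both lists were 0.846 of the bases covered in either (Jaccard index). For comparison this index was 0.554 for Sox2 and 0.359 for Sox11. The best percentile of Sox9 was 47.6 and 43.0, near the middle of each list. The peaks stood 2901 to 3650 bases from the 5′ end of a span of 5548 bases, introns included.

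Sox4 and Sox12, the other SoxC genes, were called in innervated muscle as well. Sox4 had 5 and 0 peaks in the denervated lists, against 7 and 6 in the innervated lists. Its peaks covered 1333 bases in denervated replicate 1, against 1139 and 1137 bases in the innervated lists. The percentile was 92.2 in denervated replicate 1, against 90.0 and 91.6 in the innervated lists, so Sox4 stood near the top of every list that held it and was missing from the fourth.

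Of the 7 Sox4 regions, 5 were called in the same 3 lists. They lay on chromosome 13 between 28950779 and 28953633, at 67 to 2921 bases from the 5′ end of a span of 4781 bases, and the last peak ended at the same base in all 3 lists. The final 1860 bases held no call. The RefSeq table lists another gene, Gm46405, that overlaps the Sox4 span, but no peak in the span carried its name.

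Sox12 had 4 and 3 peaks in the denervated lists, against 3 and 2 in the innervated lists. The peaks covered 1051 and 1199 bases in the denervated lists, against 701 and 499 bases in the innervated lists, without overlap between groups, as was the case in the same direction for 15.6% of the 2921 genes called in all 4 lists. A main region called in all 4 lists lay on chromosome 2 from 152396302 to 152397647. This is 400 to 1745 bases from the 5′ end of a span of 4436 bases. The region joins several shorter peaks of each list through overlaps of 1 base or more, and most of it was not covered in every list. Over all Sox12 peaks, the Jaccard index of 2 lists ran from 0.264 to 0.554. A second region of 151 bases, from 152394957 to 152395107, was called with identical edges in both denervated lists and in neither innervated list. It stood 2940 to 3090 bases from the 5′ end and was the sole such region in a member that was called in every list. The best percentile was 62.9 and 77.4 in the denervated lists, against 72.7 and 15.9 in the innervated lists, and the groups overlapped.

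**Figure D2:**
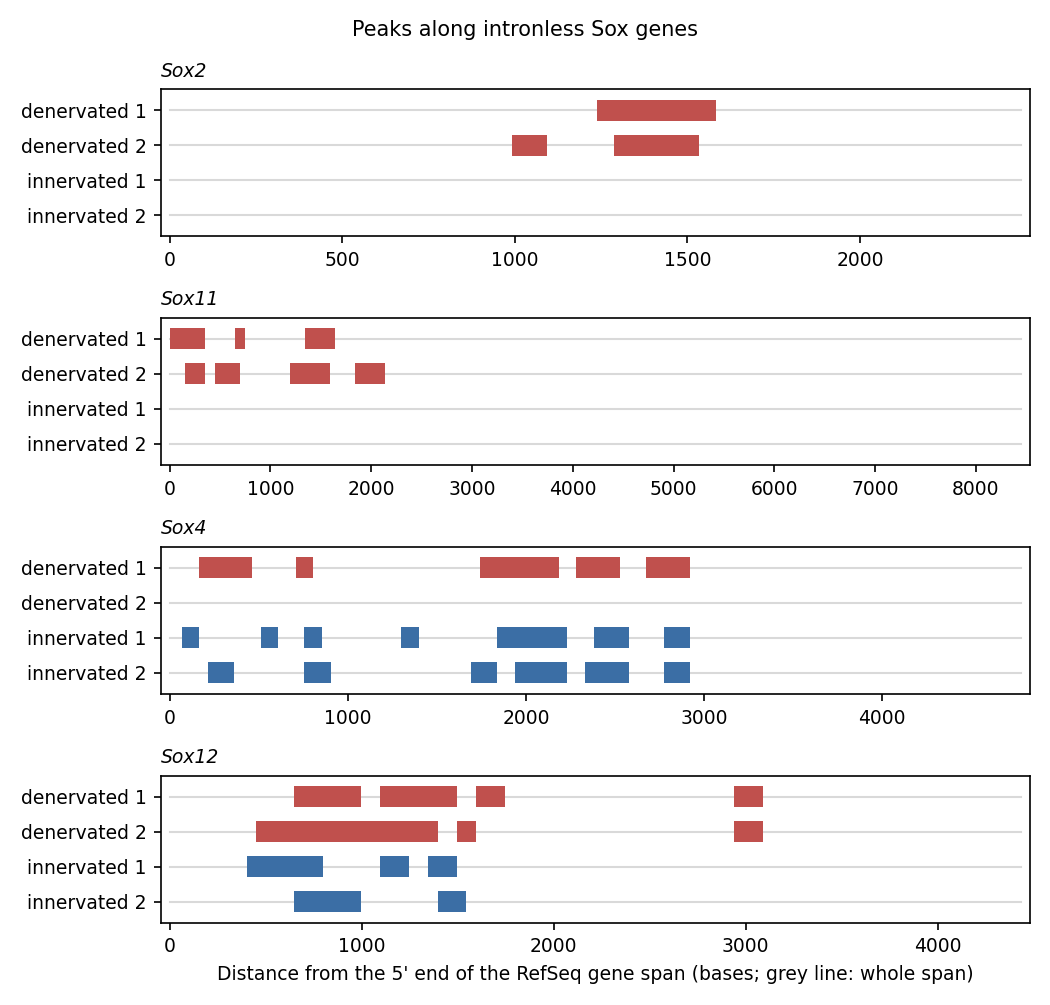
Peaks of Sox2, Sox11, Sox4 and Sox12, which are intronless genes, drawn as bars by distance from the 5′ end of the RefSeq gene span in bases (x axis), with 1 row per library (red, denervated; blue, innervated). The Sox11 peaks lie within the first 2138 bases and appear in the denervated rows alone, and Sox12 has a peak at 2940 to 3090 bases in the denervated rows alone.

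The SoxF genes of endothelium were called in both kinds of muscle. Sox7 had 3 and 2 peaks in the denervated lists, against 3 and 2 in the innervated lists. The regions that all 4 lists called lay on chromosome 14, the first at 63948357 to 63948654 and the second at 63949001 to 63949446, and a further region at 63947962 to 63948209 was called in replicate 1 of each group. The peak nearest the 3′ end stopped at the same base in every list.

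In score rank, however, Sox7 differed widely between the groups. Its percentile was 10.2 and 6.4 in the denervated lists, against 79.7 and 85.0 in the innervated lists. The scores were 0.0028 and 0.0042 in the denervated lists, against 1.7e-06 and 4e-07 in the innervated lists. The mean percentile was 8.3 ± 2.7 in denervated and 82.4 ± 3.8 in innervated muscle (SD, n = 2 each), a difference of −74.1 points that exceeded the spread between replicates. That spread may be technical alone, since the replicates may not be separate animals. Of the 2921 genes called in all 4 lists, 17.3% stood lower in both denervated lists than in either innervated list, and 16.6% stood higher in both. A mean difference of at least 50 points occurred in 1.51% of them downwards and in 1.51% upwards. A rank depends on all other peaks of its list, and with small scores read as strong the rank is not a methylation level.

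Sox17 had 1 and 0 peaks in the denervated lists, against 2 and 2 in the innervated lists. Its main region lay on chromosome 1 from 4491727 to 4492576 and was covered by a peak of 750 bases in denervated replicate 1, against peaks of 250 and 451 bases in innervated replicate 1 and a peak of 850 bases in innervated replicate 2. A short peak of 100 bases near the 5′ end, from 4496955 to 4497054, was called in innervated replicate 2 alone. The percentile was 37.9 in denervated replicate 1, against 39.9 and 82.9 in the innervated lists.

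Sox18, which in mice and humans is needed for lymphatic vessels, had 1 and 1 peaks in the denervated lists, against 0 and 1 in the innervated lists. The denervated peaks were identical in position, 394 bases on chromosome 2 from 181670327, and the innervated peak of 492 bases reached further on its 5′ side, to 181670818. The percentile was 13.2 and 77.0 in the denervated lists, against 83.8 in innervated replicate 2. The denervated replicates thus held the same peak at unlike ranks.

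Sox10, the Schwann lineage factor, was called in innervated replicate 2 alone. Its single peak of 248 bases lay on chromosome 15 from 79156392 to 79156639, at the percentile 7.8 and a score of 0.0034. It is the member with the fewest calls. Sox6, a regulator of fibre type, had 2 and 2 peaks in the denervated lists, against 2 and 0 in the innervated lists.

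The Sox6 regions lay at the far 3′ end of a gene span of 569905 bases on chromosome 7. The first ran from 115476499 to 115477196, and the second, from 115470972 to 115471370, stopped 100 bases before the 3′ end of the span. The RefSeq table lists Gm51455 and Sox6os as overlapping the Sox6 span, but no peak in the span carried their names. The peaks covered 799 and 749 bases in the denervated lists, against 1047 bases in innervated replicate 1. The better peak stood at the percentile 60.4 and 40.0 in the denervated lists, against 67.7 in innervated replicate 1. The peak nearest the 3′ end stood at 19 and 5.1 in the denervated lists, against 60.1 in innervated replicate 1, and its denervated score of 0.0052 in replicate 2 was the largest of any Sox peak.

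**Figure D3:**
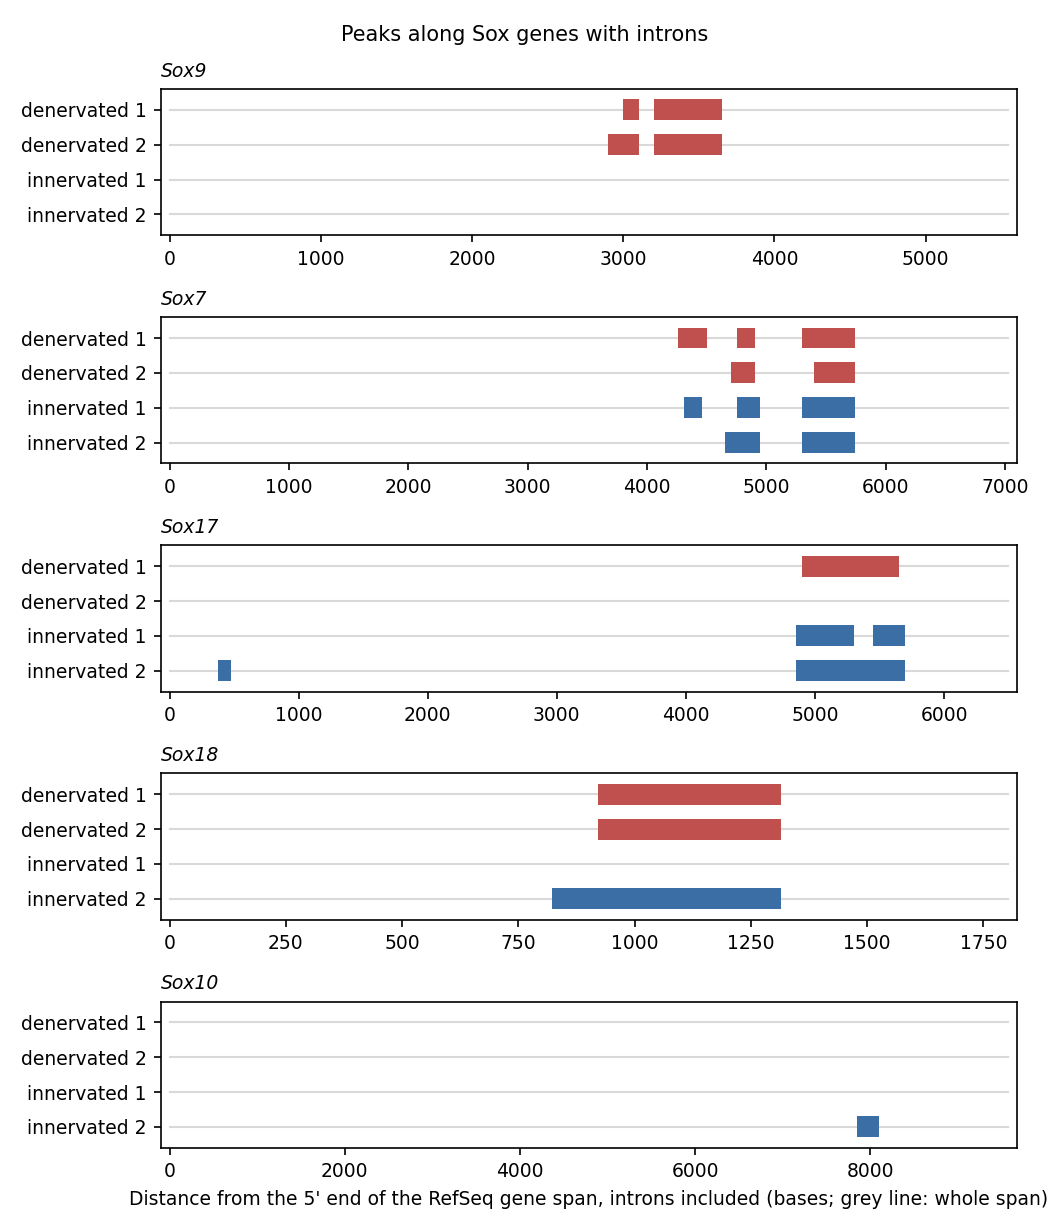
Peaks of Sox9, Sox7, Sox17, Sox18 and Sox10, drawn as bars by distance from the 5′ end of the RefSeq gene span in bases with introns included (x axis), with 1 row per library (red, denervated; blue, innervated). Sox9 has bars in the denervated rows alone, Sox10 in innervated replicate 2 alone, and the last Sox7 bars end at the same base, 5741, in all 4 rows.

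Sox peaks lay nearer the middle of the gene span than the median peak of each list. Their median midpoint was 56.1% of the span from the 5′ end in both denervated lists pooled and 51.3% in both innervated lists pooled. For all peaks the medians were 84.8% and 83.1% in the denervated lists, against 84.5% and 85.4% in the innervated lists. The spans are not alike, however: 9 of the 10 Sox genes span under 10000 bases, as do 24.0% of all called genes, and the medians were 6024 bases for the members and 25215 bases for all called genes. The span includes introns, so these positions are not places along the messenger RNA except in intronless genes.

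The median width of Sox peaks was 297.5 and 248 bases in the denervated lists, against 197 and 247.5 bases in the innervated lists, so the nearest values of the groups were almost equal. Over all peaks the median was 249 to 250 bases. A member called in a list had 2.56 peaks there on average, while all called genes had 2.13 to 2.25. Of the 21 cases in which a member had several peaks in a list, 17 had the same score for all of them, as did 55.8% to 70.0% of all such genes. A percentile thus mostly ranks the gene and not the single peak.

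**Figure D4:**
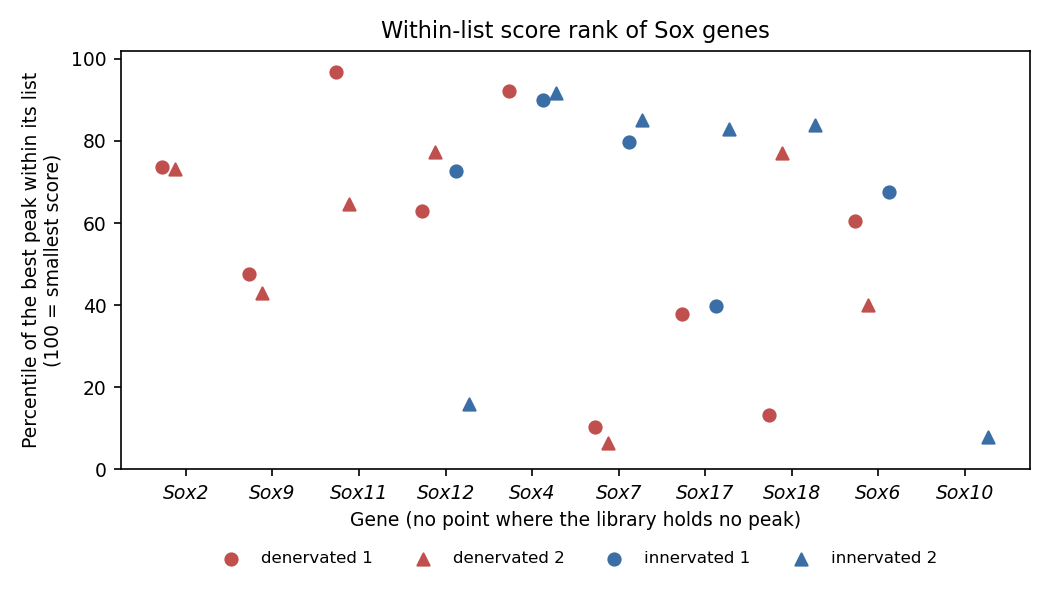
Percentile of the best peak of each Sox gene within its list (y axis, 100 at the smallest score) by gene (x axis), with 1 point per library (red, denervated; blue, innervated; circles, replicate 1; triangles, replicate 2). The Sox7 points lie at 10.2 and 6.4 in denervated and at 79.7 and 85.0 in innervated muscle, while the Sox4 points lie between 90.0 and 92.2.

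Of the 20 genes of the mouse Sox family, 12 had a peak. Outside the members these were the SoxD genes Sox5 and Sox13. Sox5 was called in all 4 lists, with 350 and 350 bases in the denervated lists, against 251 and 350 bases in the innervated lists, on chromosome 6 from 143833064 to 143833413. Its percentile was 8.1 and 66.0 in the denervated lists, against 66.3 and 63.4 in the innervated lists. Sox13 had a peak in denervated replicate 1 and in both innervated lists. Its percentile was 38.4 in denervated replicate 1, against 4.3 and 0.65 in the innervated lists. The innervated Sox13 calls thus stood near the bottom of their lists, and they count in the equal nearest values of the groups given above. The 8 genes without a peak were Sry, Sox1, Sox3, Sox8, Sox14, Sox15, Sox21 and Sox30.

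The members are known from Schwann cells, endothelium and matrix-producing cells, so the calls of marker genes of these cells were set beside them, leaving out the Sox members. Of 19 Schwann cell genes, 8 had a peak, in 4 and 3 genes in the denervated lists, against 4 and 5 in the innervated lists. Ngfr, a neurotrophin receptor of immature Schwann cells, was called in the denervated lists alone, with 3 and 2 peaks. Foxd3, a neural crest factor, was called in the innervated lists alone, with 3 and 4 peaks. Egr2, a regulator of myelination, and Cdh19, a cadherin of Schwann cell precursors, were called in all 4 lists. The myelin gene Mbp and the glial gene S100b had no peak in any list. The Schwann cell genes thus were not called in a single direction, and their part in the Sox2 calls was not tested.

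Of 18 endothelial genes, 12 had a peak, in 12 and 9 genes in the denervated lists, against 9 and 8 in the innervated lists. Of these, 6 were called in all 4 lists, among them Cdh5, the junction cadherin, and Kdr, a receptor of vascular endothelial growth factor. Mecom, a transcription factor, was called in the denervated lists alone, with 2 and 3 peaks, and 0 genes in the innervated lists alone. Of 20 matrix and fibroblast genes, 14 had a peak. They numbered 14 and 12 in the denervated lists, against 10 and 9 in the innervated lists, without overlap. Fbn1, which encodes a microfibril protein, was called in the denervated lists alone, with 5 and 3 peaks. Of this list, 0 genes were called in the innervated lists alone, and 8 were called in all 4 lists. All genes with a peak numbered 4601 and 4230 in the denervated lists, against 4149 and 4642 in the innervated lists, and these overlapped. How many gene lists of this size would show no overlap was not computed, so nothing is read from the matrix count. The part of matrix cells in the Sox9 calls was not tested.

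Of 12 cartilage and tendon genes, many of them known targets of Sox9, Scx and Tnxb had peaks in all 4 lists. Col2a1, Acan and the other 8 had none. Satellite cell and myogenic genes had 6 and 4 of 12 called in the denervated lists, against 2 and 4 in the innervated lists, with Myod1 and Peg3 in the denervated lists alone. Macrophage and immune genes had 4 and 4 of 12, against 3 and 3, with Cd180 in the denervated lists alone, and pericyte and smooth muscle genes had 4 and 3 of 10, against 3 and 4.

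**Figure D5:**
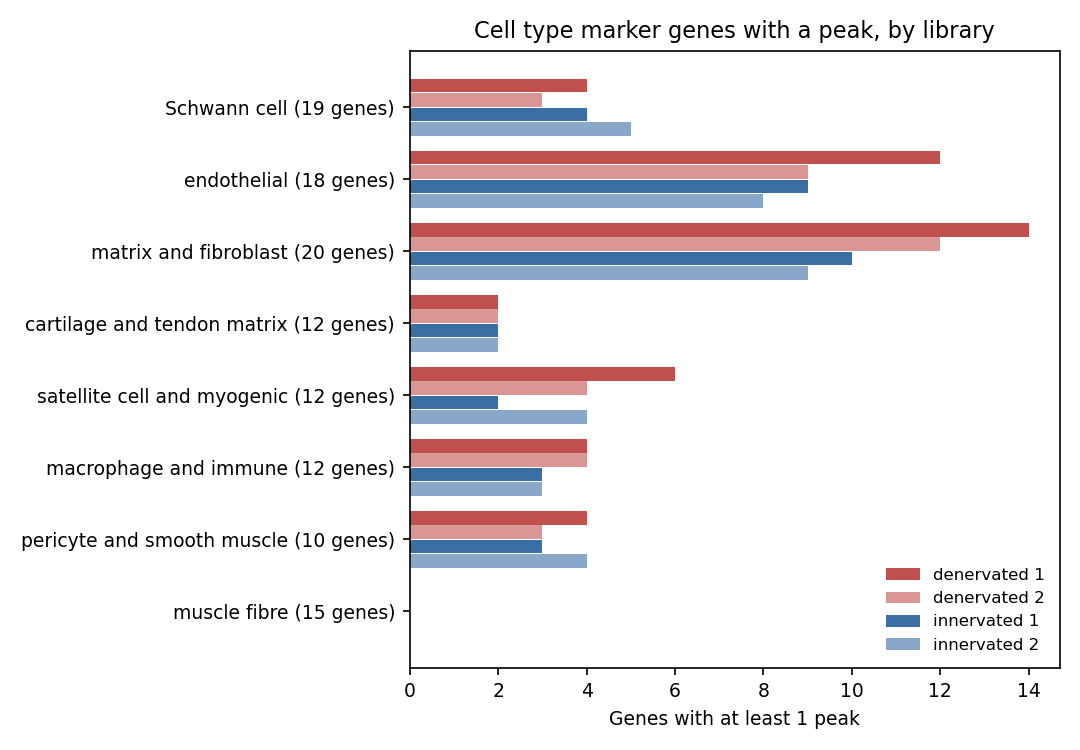
Number of marker genes with at least 1 peak (x axis) for 8 cell type lists (y axis, list size in brackets, Sox members left out), with 1 bar per library (red, denervated; blue, innervated; pale, replicate 2). The matrix and fibroblast list had 14 and 12 genes in denervated and 10 and 9 in innervated libraries, and the muscle fibre list had 0 in all 4.

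Of 26 partners and pathway genes of SOX factors, 15 had a peak. They numbered 9 and 11 in the denervated lists, against 12 and 14 in the innervated lists, without overlap. All genes with a peak numbered 4601 and 4230 in the denervated lists, against 4149 and 4642 in the innervated lists. The list was chosen with earlier results known and shares Egr2 and Pou3f1 with the Schwann cell list, so nothing is read from its count. Of the 26 genes, 9 were called in all 4 lists. They included Ctnnb1, the beta-catenin whose action SOX factors modulate, the acetyltransferase genes Ep300 and Crebbp, and Notch4 and Dll4 of arterial Notch signalling. Nr2f2, a venous identity factor, and Tead1 were called in all 4 lists too. The corepressor gene Ncor1 was called in the innervated lists alone, with 3 and 3 peaks, and 0 genes of the list in the denervated lists alone. Prox1, a lymphatic factor that Sox18 activates, was called in replicate 2 of each group, with 4 peaks in denervated and 3 peaks in innervated muscle.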

How the data were processed

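Each of 4 deposited lists holds the peaks that the authors called in 1 IP library against its own input, with no pooling, per the file headers and names. The submitters' processing notes name mm10, STAR 2.4.2a and ChIPseeker. The peak caller and the meaning of the score are not given here. The score in the deposited lists served only for ranks within a list, written as percentiles (100 at the smallest score, ties at their mean rank). Per the labels' protocols, RNA was extracted with Trizol and libraries preserved strand. No read counts were used, so depth is unknown and no intervals are given.

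Overlapping peaks were joined into regions by at least 1 base in common on a strand, and starts are given 1-based. Of 5987 names in the lists, 5725 were RefSeq symbols, 249 older symbols and 13 not matched. Positions use RefSeq gene spans of GRCm38.p6, the assembly of mm10. The members and gene lists were chosen with earlier results of these data known, and motifs after the promoter sequences were seen. All Sox family genes were named, and from each marker list the genes called in 1 group alone. Further genes named are examples, chosen once their calls were known. No test was run on the calls. The joining and classes were checked on simulated data with 1 peak per gene and list, set far apart. That check does not cover the joining of neighbouring peaks of a gene. Python 3.11.15 and pandas 2.3.3 were used. Alternatives were the peaks on either side of the median score, equal list sizes, stricter overlap, assignment by span, and leaving out each library.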

Additional observations from a re-analysis of the deposited data

How the results depend on the processing

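The 3 Sox genes called in the denervated lists alone numbered 3 also with equal list sizes, with assignment by gene span and without either denervated replicate, and 4 without either innervated replicate (Sox6 was added without innervated 1, and Sox18 without innervated 2). Leaving out a library could add genes to this class but could not remove any of the 3, by construction. Assignment by gene span could not change a call either. No Sox peak lay outside the span of its gene, and no peak in a span carried another name. Keeping the 50% of peaks with the smallest scores they were Sox2 and Sox11, and Sox7 became innervated alone (1 gene). With the 50% with the largest scores there were 3, among them Sox9 and Sox7. In both settings 0 genes and 0 regions were called in all lists. Because these settings remove peaks by score, a gene near the limit loses calls by construction. With the smallest scores, regions called in 1 group alone numbered 4 denervated and 2 innervated, and Sox peaks per list averaged 11.5 in denervated and 13 in innervated muscle, the opposite order to the 19 and 15.5 over all peaks. With the largest scores, the averages were 7.5 in denervated and 2.5 in innervated muscle. Reciprocal overlap of 50% gave 6 regions in the denervated lists alone, 1 in the innervated lists alone and 2 in all lists. Leaving out a library gave 0 to 2 genes and 0 to 5 regions called in the innervated lists alone, 3 to 4 genes and 8 to 9 regions in the denervated lists alone, and 2 to 4 genes and 3 to 10 regions in all lists. Without denervated replicate 1, where Sox4 and Sox17 were called, these became innervated alone (2 genes and 5 regions), and without denervated replicate 2 those called in all lists numbered 4 genes and 10 regions.

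Marker lists moved as follows. With the smallest scores, the Schwann list had 0 denervated and 0 in all lists, the endothelial list 2 in all lists, the matrix list 2 denervated and 3 in all lists, and the 8 lists together 2 innervated and 9 in all lists. With the largest scores, the Schwann list had 0 denervated, 0 innervated and 0 in all lists, the endothelial list 1 innervated and 0 in all lists, the matrix list 0 denervated and 2 in all lists, and the 8 lists together 2 in all lists. Taken at peak starts, the median position of Sox peaks was 51.0% in denervated and 45.6% in innervated muscle, and at peak ends 58.5% in denervated muscle. A peak starts before its midpoint and ends after it, so these medians shift by construction. The marker list settings remove peaks by score, so genes near the limit lose calls by construction there too. Ranking genes in place of peaks gave a Sox7 difference of −75.6 points. Both rankings order the same scores, so this setting could change little.

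No paired analysis was possible because the labels do not say whether samples with the same number came from the same animal, and the calls were described without a test. Depth, which is unknown, limits every absence of a call.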
